A study of Mus musculus with 19 samples.

Results

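The immediate early response genes described here are Fos, Fosb, Jun, Junb, Egr1, Ier2, Ier3, Dusp1, Nr4a1 and Zfp36. They are 10 of the 26796 genes in the deposited expected-count table, found by matching each symbol to its Ensembl identifier, and all 10 passed the filter on low counts that left 15629 genes to test. RNA was sequenced from 19 mouse mammary tumours grown from Met1, a transplantable tumour line. The mice had received extracellular vesicles, the membrane particles that cells release, collected from neutrophils. In 9 tumours (DMSO) those neutrophils had been treated with the solvent dimethyl sulphoxide, and in 10 tumours (27HC) with 27-hydroxycholesterol, a cholesterol metabolite. Both groups therefore received neutrophil vesicles, and tumours without vesicles were not analysed here. The sources used here do not give strain, sex or age of the mice, vesicle dose or timing, or the interval between killing and freezing. Nor do they state that every tumour grew in a separate mouse, so p-values measure the spread between these samples. A whole tumour mixes cancer cells with host cells, and fewer cells of a type cannot be told apart from less RNA per cell. The 6 epithelial markers Epcam, Krt8, Krt18, Krt14, Krt5 and Cdh1 together reached 63.1 to 135.7 CPM (counts scaled to the size of the library) with DMSO. With 27HC they reached 44.96 to 137.8 CPM, and 0 of them were at 0 in every tumour. These genes mark epithelium in general, so their presence does not test the mammary label.

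Immediate early genes are transcribed within minutes of a growth factor, cytokine or stress signal, without new protein synthesis, because the factors that switch them on are already present. Mitogen-activated protein kinases activate serum response factor with its ternary complex partners, and CREB, at the promoters of these genes. Many of the transcripts decay quickly, so a level can reflect recent signalling as well as handling between excision and freezing. Fos and Fosb encode partners that pair with the Jun and Junb proteins to form the transcription factor AP-1. Egr1 is a zinc finger transcription factor and Nr4a1 an orphan nuclear receptor. Ier2 is a nuclear protein of less defined function, and Ier3 acts in survival signalling. Dusp1 encodes a phosphatase that switches off mitogen-activated protein kinases, and Zfp36 encodes tristetraprolin, which binds AU-rich elements and speeds the decay of messenger RNAs.

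Fos and Dusp1 were both highest in 1 tumour, DMSO replicate 2_1, and Junb and Nr4a1 were not. Over all 19 tumours Dusp1 was no closer to Fos (Spearman's rho 0.38) than to Junb (0.43) or Nr4a1 (0.51). The stretches just upstream of these 4 genes, chosen by that 1 tumour, are shown. They come from the RefSeq promoter table on GRCm38, which matched 8 of the 10 genes (not Egr1 or Ier2), and run 5′ to 3′ on the strand of the gene. For Fos, Junb and Nr4a1 the 150 bases next to the start are shown. For Dusp1 only 100 bases are shown, from 150 to 51 bases before the start. Capitals mark TGACG, the core of the cyclic AMP response element, on either strand, its octamer TGACGTCA, which contains the core, and TATAAA.
Fos, chr12:85473740-85473889, plus strand: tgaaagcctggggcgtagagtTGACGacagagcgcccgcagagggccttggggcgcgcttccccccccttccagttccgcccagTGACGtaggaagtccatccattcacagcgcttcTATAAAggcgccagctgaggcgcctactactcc
Dusp1, chr17:26508523-26508622, minus strand: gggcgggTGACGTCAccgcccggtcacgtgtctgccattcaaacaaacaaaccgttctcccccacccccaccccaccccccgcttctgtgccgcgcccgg
Junb, chr8:84978749-84978898, minus strand: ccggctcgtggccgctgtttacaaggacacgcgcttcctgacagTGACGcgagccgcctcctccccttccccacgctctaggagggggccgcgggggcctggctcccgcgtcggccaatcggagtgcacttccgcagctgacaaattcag
Nr4a1, chr15:101266696-101266845, plus strand: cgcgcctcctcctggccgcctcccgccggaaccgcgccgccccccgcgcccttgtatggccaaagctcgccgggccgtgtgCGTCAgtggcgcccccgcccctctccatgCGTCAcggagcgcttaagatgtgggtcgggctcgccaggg
Within 150 bases upstream of the start, 5 of the 8 matched genes (Fos, Fosb, Junb, Dusp1 and Nr4a1) held TGACG on either strand, against 13.3% of 32851 promoters in the table. The octamer was found in Dusp1 alone (1.36% of promoters) and TATAAA in Fos alone (7.57%). The CArG box, the element bound by serum response factor, was found only in Zfp36 (0.916%). A match describes these letters and is not evidence of binding, and no match says only that the letters are not in this window. TGACG was present in all 4 of the stretches shown and absent from this window in Jun, Ier3 and Zfp36. Whether these letters bear on the order of the tumours was not tested.

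Library depth ran from 28139419 to 41179056 expected counts per tumour. The lowest expected count of any member in any tumour was 155.8, for Fos, so counting error was small beside the spread between tumours. One feature of the libraries touched most members. The GC content of the transcripts, averaged over each library's counts, was 49.82% to 50.01% in 5 libraries (27HC replicates 1_3, 1_5 and 2_3 and DMSO replicates 1_5 and 2_3) and 51.2% to 52.8% in the other 14. Transcripts of the members are themselves rich in GC, from 53.02% for Dusp1 to 62.7% for Junb, against a median of 50.8% over the tested genes. The fold changes, the spread and the shared order are therefore also given for the 14 tumours outside the low-GC libraries.

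Levels between genes are compared per kilobase of exon. Ier3 was the most abundant at 197.1 ± 84.3 CPM per kb (SD, n = 19), then Junb at 139.3 ± 59.4 and Jun at 67.5 ± 15.1, and this order held within all 19 tumours. Ier2 followed at 44.7 ± 19.5 CPM per kb and lay above Nr4a1, at 26.5 ± 6.78, in 16 of 19 tumours. Dusp1 and Zfp36 did not differ beyond their spread, with 17.4 ± 6.69 and 17.2 ± 2.54 CPM per kb, Dusp1 being the higher in 8 tumours. Egr1 had 10.6 ± 4.23, Fos 5.69 ± 5.35 and Fosb 1.70 ± 0.73 CPM per kb. Fosb was below Fos in all 19 tumours, and Fos below Egr1 in 18.

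No immediate early gene passed the threshold between 27HC and DMSO. In edgeR's quasi-likelihood test, adjusted by the Benjamini-Hochberg method over 15629 genes, 0 of 10 members were called, against 0.0% of all genes, and every member had an adjusted p of 1.00. At an unadjusted p under 0.05 there were again 0 of 10, against 2.27% of all genes. Of the 10, 5 had a log2 fold change (27HC over DMSO) below 0, against 46.1% of all genes, with a median of -0.03 beside 0.01 over all genes. Without DMSO replicate 2_1, 2 of 10 were below 0. limma-voom and DESeq2 also called 0 members (0.0% and 0.00753% of all genes). The groups overlapped for all 10 members, as for every tested gene (0.0% of 15629 did not overlap).

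**Figure D1:**
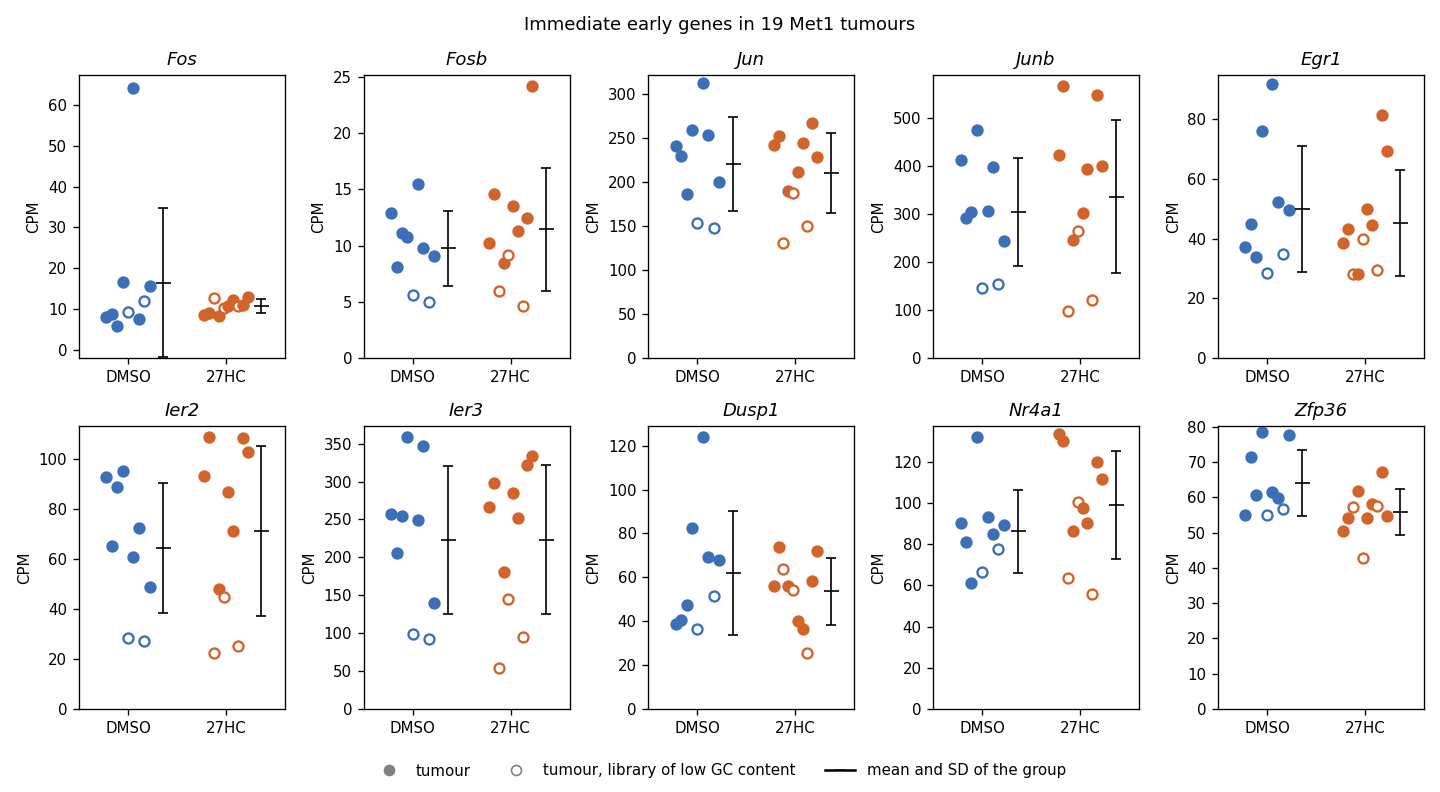
CPM (linear axis from 0, or from just below it for Fos, where the SD bar reaches under 0) of each gene in 9 DMSO and 10 27HC tumours, 1 point per tumour, with the group mean and SD. Open points are the 5 libraries of low GC content, and the single high Fos point is DMSO replicate 2_1 at 64.2 CPM.

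Among the AP-1 genes, Fos (ENSMUSG00000021250, GRCm38 chromosome 12, 85473890 to 85477273) ran from 5.78 through a median of 9.30 to 64.2 CPM with DMSO, and from 8.20 through 10.8 to 13.0 CPM with 27HC. All 10 27HC tumours were close together, and 8 of the DMSO tumours lay at or below 16.6 CPM, with DMSO replicate 2_1 alone far above. The log2 fold change was -0.62 (SE 0.36), and without that tumour it was 0.03. Its DMSO mean was 16.4 ± 18.3 CPM (SD, n = 9) with that tumour and 10.4 ± 3.89 CPM (SD, n = 8) without it, beside 10.7 ± 1.68 CPM (SD, n = 10) with 27HC. The 95% interval of the fold change over all 19 tumours ran from 0.389 to 1.08 fold.

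Fosb ran from 5.02 through 9.77 to 15.5 CPM with DMSO and from 4.62 through 10.8 to 24.2 CPM with 27HC, the highest being 27HC replicate 2_5. The change, 0.23 (SE 0.26) on the log2 scale, was 0.04 without that tumour. Jun ran from 148.0 through 229.5 to 312.9 CPM with DMSO and from 130.6 through 220.1 to 266.9 CPM with 27HC. The difference of -0.07 (SE 0.16) on the log2 scale had a 95% interval of 0.759 to 1.20 fold. Junb ran from 145.4 through 304.4 to 475.1 CPM with DMSO and from 97.1 through 348.0 to 566.3 CPM with 27HC. Its log2 fold change of 0.15 (SE 0.30) was 0.25 without the low-GC libraries and -0.06 after a correction for GC content per library.

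Of the other transcription regulators, Egr1 ran from 28.4 through 44.98 to 91.7 CPM with DMSO and from 28.2 through 41.4 to 81.4 CPM with 27HC, with a log2 fold change of -0.14 (SE 0.24). Nr4a1 ran from 61.2 through 84.8 to 131.9 CPM and from 55.9 through 99.2 to 133.7 CPM. This was a log2 difference of 0.20 (SE 0.17), with 8 of 10 27HC tumours above the DMSO median. Ier2 (chromosome 8, 84661331 to 84662852) ran from 27.3 through 65.3 to 95.1 CPM with DMSO and from 22.2 through 79.0 to 109.0 CPM with 27HC. Ier3 (chromosome 17, 35821684 to 35822923) ran from 92.6 through 249.2 to 358.4 CPM and from 54.4 through 259.5 to 333.3 CPM. On the log2 scale the change was 0.14 (SE 0.31) for Ier2 and 0.0045 (SE 0.32) for Ier3, and in each group the lowest values belonged to low-GC libraries.

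The feedback genes Dusp1 and Zfp36 both had values below 0 that did not pass. Dusp1 ran from 36.6 through 51.4 to 124.1 CPM with DMSO and from 25.5 through 55.9 to 73.7 CPM with 27HC, a log2 fold change of -0.21 (SE 0.23) that was -0.02 without DMSO replicate 2_1. Zfp36 (chromosome 7, 28376784 to 28380253) was the steadiest member, from 55.0 through 60.5 to 78.5 CPM with DMSO and from 42.8 through 55.997 to 67.0 CPM with 27HC. Its means were 64.0 ± 9.34 CPM (SD, n = 9) and 55.8 ± 6.48 CPM (SD, n = 10). The log2 fold change of -0.20 (SE 0.10) had the smallest unadjusted p of the set, 0.0621 in edgeR, and only 2 of 10 27HC tumours lay above the DMSO median. It ran from -0.24 to -0.16 over the 19 fits that left out 1 tumour.

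**Figure D2:**
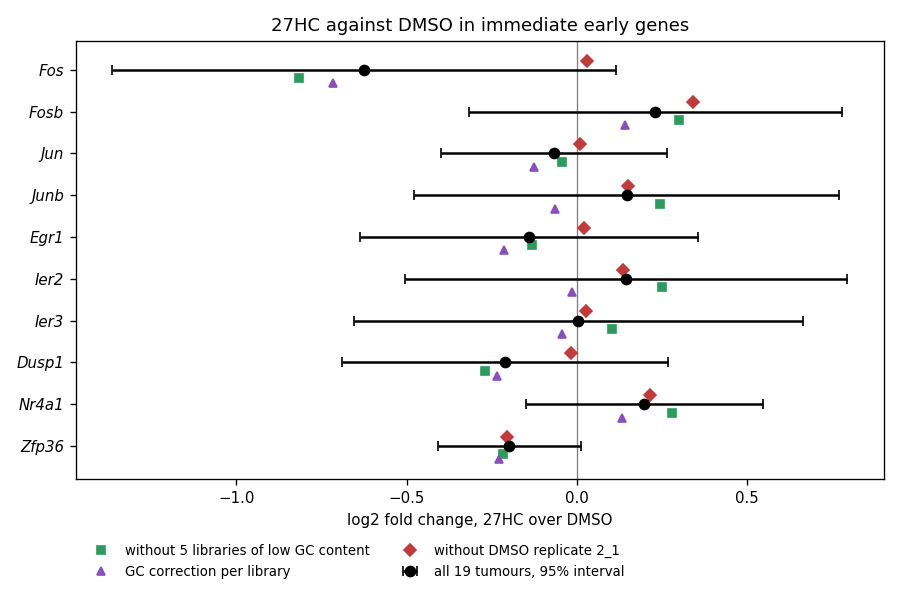
Log2 fold change of 27HC over DMSO for each gene, with the 95% interval of edgeR's fit to 19 tumours and the estimates under 3 other settings. Every interval spans 0, and the Fos estimate of -0.62 moves to 0.03 when DMSO replicate 2_1 is left out.

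Without the low-GC libraries the log2 fold changes were -0.82 for Fos, 0.30 for Fosb, -0.04 for Jun, 0.25 for Junb and -0.13 for Egr1. They were 0.25 for Ier2, 0.10 for Ier3, -0.27 for Dusp1, 0.28 for Nr4a1 and -0.22 for Zfp36, and again 0 of 10 members were called. Over the 19 tumours, the 95% interval lay within 2-fold in both directions for 9 of 10 members, Fos being the exception, and within 1.5-fold for 3 of 10 (Jun, Nr4a1 and Zfp36). The first number in each title, 1 or 2, has no stated meaning, and the treatment effect was compared between its values with an interaction term in edgeR. The test called 0 of 10 members, against 0.0% of all genes, and at an unadjusted p under 0.05 it held 1 of 10, against 1.43% of all genes. That member was Dusp1, with a difference of -1.06 (SE 0.42) on the log2 scale, unadjusted p = 0.0201 and adjusted p = 0.911 in edgeR. Within title number 1 its log2 fold change was 0.34, and within number 2 it was -0.77. Fos had -1.11 (SE 0.61). DMSO replicate 2_1, the highest tumour for both Dusp1 and Fos, carries the title number 2. Dusp1 was at 124.1 CPM there, against 51.4 to 69.3 CPM in the other DMSO tumours of number 2. The interaction was not fitted without that tumour.

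The members differed widely in how much they varied between tumours. The SD of log2 CPM over the 19 tumours was 0.78 for Ier3, 0.76 for Ier2, 0.73 for Junb and 0.71 for Fos. These lay at percentiles 83.4, 82.1, 79.1 and 77.5 among all tested genes, and at 94.1, 95.4, 89.2 and 83.9 among genes within 0.5 log2 CPM of their own level. At the other end, Zfp36 had an SD of 0.21 (percentile 6.33), Jun 0.34 (28.1) and Nr4a1 0.37 (34.0). Fosb had 0.60, Egr1 0.53 and Dusp1 0.52. The median percentile of the 10 was 61.6.

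Without the low-GC libraries Fos, Egr1 and Dusp1 had the largest SDs. Over the 14 tumours the SD was 0.38 for Ier3, 0.40 for Ier2 and 0.39 for Junb (percentiles 57.2, 59.97 and 59.0), while Fos had 0.83 (percentile 93.9). Egr1 and Dusp1 stood at percentiles 75.0 and 74.5. Among genes of like level the percentiles over the 14 were 82.5 for Ier3, 84.0 for Ier2, 82.5 for Junb, 99.0 for Fos, 92.6 for Egr1 and 93.4 for Dusp1. Ier3, Ier2 and Junb thus varied more than most genes of their level with or without those libraries. The Fos value rests on 1 tumour: without DMSO replicate 2_1 its SD was 0.38 (percentile 33.8) over the other 18 tumours and 0.43 (percentile 67.2) over 13 of the 14. That tumour also raised the other 2 SDs. Without it Egr1 had 0.48 (percentile 49.1) over 18 tumours and 0.45 (percentile 69.7) over 13. Dusp1 had 0.45 (percentile 45.1) and 0.40 (percentile 62.3), the latter below Fosb at 0.41 over the same 13.

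**Figure D3:**
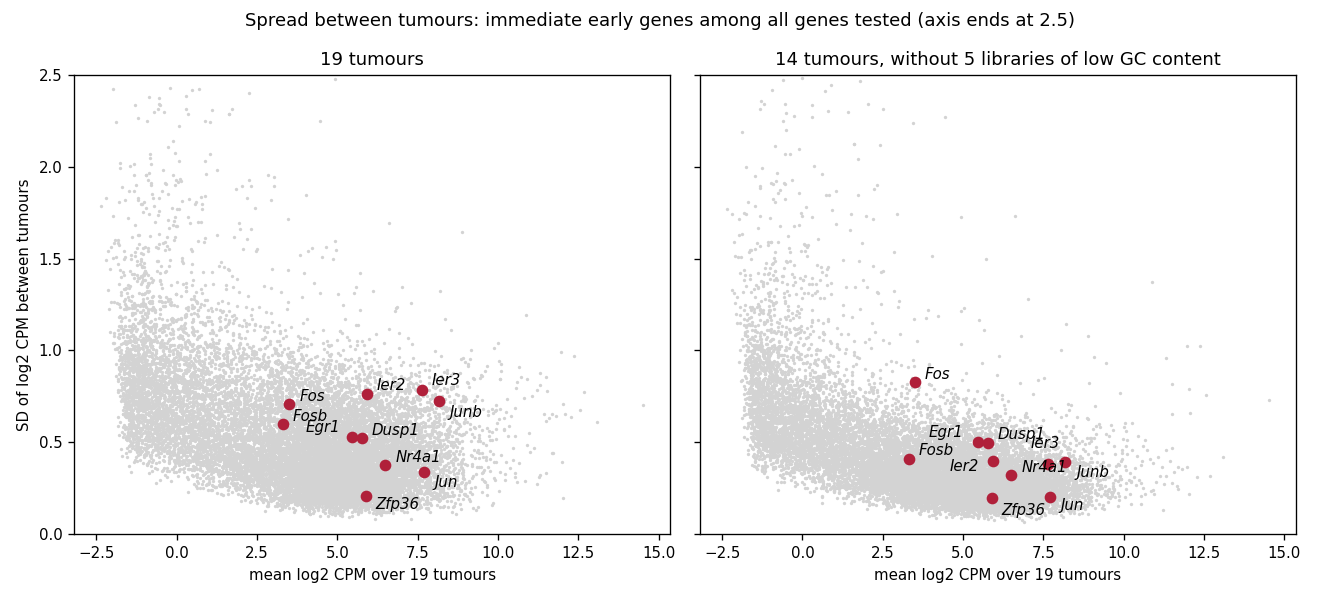
SD of log2 CPM between tumours against mean log2 CPM for all tested genes (grey) and the 10 immediate early genes (red), over 19 tumours on the left and 14 on the right. Ier2, Ier3 and Junb move from SDs of 0.73 to 0.78 down to 0.38 to 0.40, while Fos, at 0.83 on the right, is carried by DMSO replicate 2_1.

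In the 5 low-GC libraries 10 of 10 members had a mean log2 CPM below that of the other 14 tumours, with a median difference of -0.63, beside 46.3% of all tested genes and a median of 0.09. The difference was largest for Ier3 (-1.49), Ier2 (-1.46) and Junb (-1.31) and smallest for Fos (-0.06) and Zfp36 (-0.19). Ier2, for example, ran from 22.2 to 44.9 CPM in the 5 libraries and from 48.1 to 109.0 CPM in the other 14. It was the only member whose low-GC values all lay below the others, a pattern held by 11.8% of all tested genes. Library GC content was computed from these same counts, so genes rich in GC tend to be lower in these 5 libraries by construction. Among tested genes with a GC content between 53% and 56%, which holds 7 members, the median difference was -0.43, and above 56% GC, which holds Fosb, Junb and Ier2, it was -0.77. Whether library preparation, RNA quality or tumour makeup set these values was not tested.

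**Figure D4:**
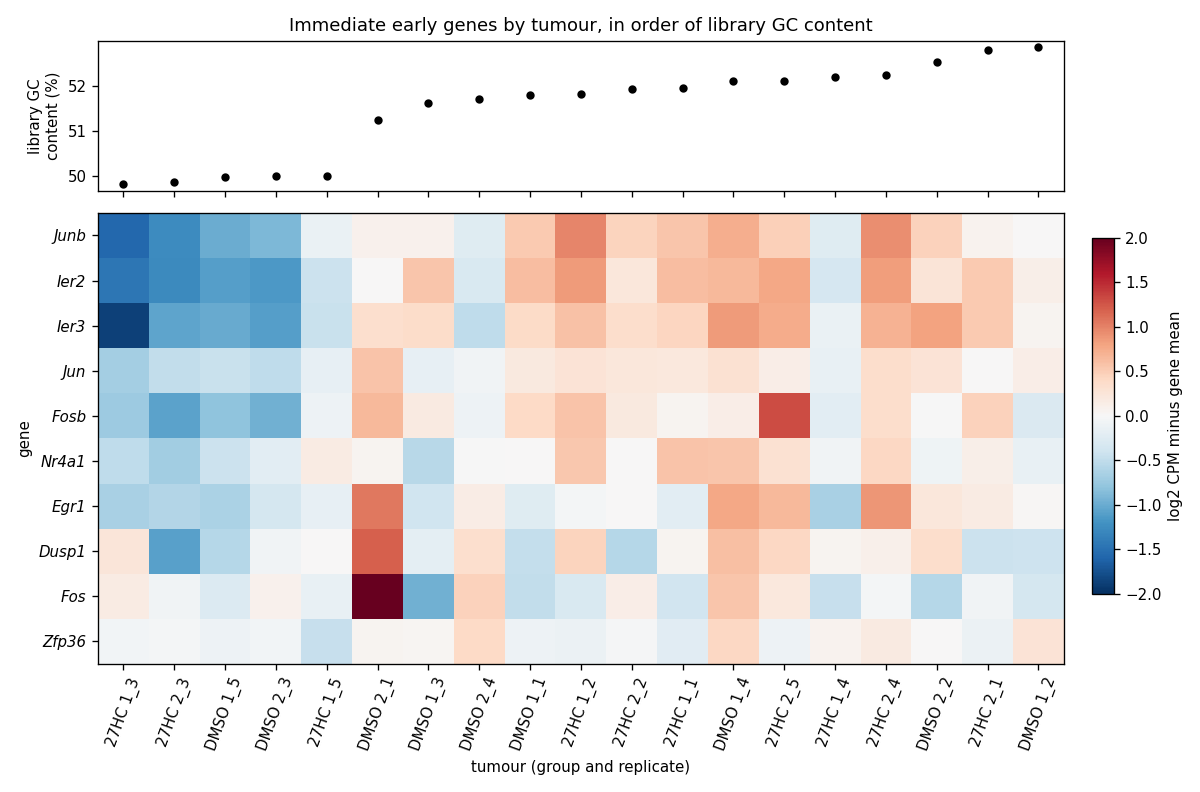
Each gene's log2 CPM minus its mean over 19 tumours (colour), with tumours ordered by the GC content of their library (upper panel, percent). The 5 libraries at 49.82% to 50.01% GC are low for Junb, Ier2 and Ier3, and DMSO replicate 2_1 stands out for Fos, Dusp1 and Egr1.

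The members ranked the tumours alike in part. Over 45 pairs of members, Spearman's rho between their log2 CPM over 19 tumours had a median of 0.51 and was above 0 for 38 pairs. Of the 45, 22 passed after Benjamini-Hochberg adjustment of permutation p-values. Junb, Ier2 and Ier3 were the tightest group. Junb and Ier2 had Pearson's r = 0.96 and rho = 0.95, each with a permutation p of 1e-05, the smallest that 100000 resamples can give (adjusted p = 6.43e-05 and 0.00015), and r was 0.93 without the 2 tumours farthest from the median. Ier2 and Ier3 had r = 0.95 and rho = 0.91, with the same permutation p and adjusted p for each and r = 0.94 without the 2 farthest tumours. Jun, Fosb, Nr4a1 and Egr1 joined them at lower values, with rho between 0.57 and 0.84 for each with each of the 3. Zfp36 passed with 0 of its 9 partners, with a median rho of 0.03, and so did Fos, with 0.11. On deviations from the group means the median rho was 0.56, and it was 0.55 in DMSO tumours alone and 0.52 in 27HC tumours alone.

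Part of this shared order went with the low-GC libraries. Over the 14 other tumours the median rho was 0.38, and 39 of 45 pairs were above 0. Fewer tumours make a given rho less likely to pass, so the number passing is not comparable with that over 19. Here 5 of 45 pairs passed. Junb and Ier2 still had r = 0.84 and rho = 0.89 (permutation p = 0.00024 and 2e-05, adjusted p = 0.00799 and 0.0009). The other 4 were Junb with Ier3 (rho = 0.76, permutation p = 0.00248), Ier2 with Ier3 (rho = 0.78, permutation p = 0.00171), Junb with Nr4a1 (rho = 0.72, permutation p = 0.0046) and Fos with Egr1 (rho = 0.71, permutation p = 0.00554). Adjusted p-values of these rho ran from 0.0372 to 0.0499. Their Pearson r was 0.78, 0.81, 0.69 and 0.73, of which the third did not pass (permutation adjusted p = 0.0506). Without the 2 tumours farthest from the median, r over the 14 was lower within the block of Junb, Ier2 and Ier3. It was 0.71 for Junb with Ier2, 0.62 for Junb with Ier3 and 0.56 for Ier2 with Ier3. For Junb with Nr4a1 it was 0.74. With 5 tumours the low-GC libraries are too few for a value of their own. After the correction for GC content per library, over all 19 tumours, the median rho was 0.46 and 17 pairs passed. Fos with Zfp36 was among them (rho = 0.62, permutation adjusted p = 0.0239). That pair had rho = 0.25 over 19 tumours without the correction and 0.31 over the 14, and passed in neither.

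Fos kept a different company from Junb, Ier2 and Ier3. Over 19 tumours its rho with these was -0.11, -0.14 and -0.12, against 0.44 with Egr1 and 0.38 with Dusp1. For Fos and Egr1, r was 0.60 (permutation p = 0.00271, adjusted p = 0.00642) while rho did not pass (permutation p = 0.0588, adjusted p = 0.106). Without the 2 tumours farthest from the median of Fos, r was 0.40. For Fos and Dusp1, r was 0.60 (permutation p = 0.00954, adjusted p = 0.0179), rho did not pass (permutation p = 0.111, adjusted p = 0.168), and r was 0.29 without the 2 farthest tumours. Over 19 tumours these 2 Pearson values thus rest in part on the 2 extreme tumours. Over the 14 tumours, Fos with Egr1 kept r = 0.63 without the 2 farthest, against 0.73 with them.

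**Figure D5:**
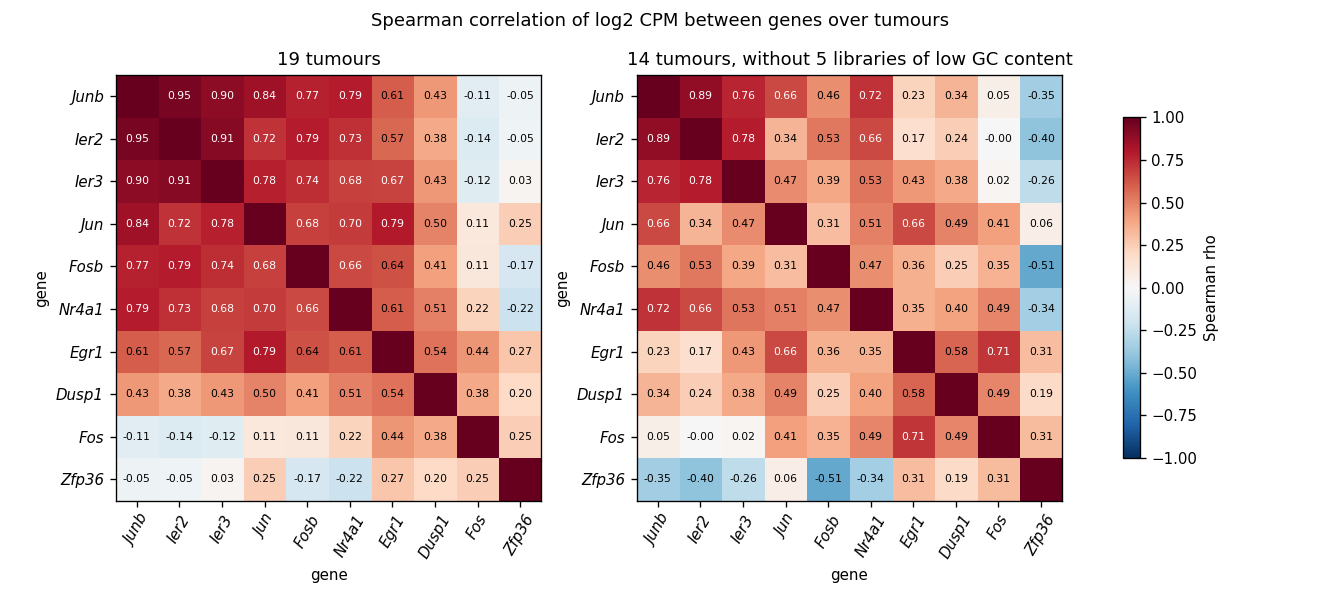
Spearman's rho between each pair of genes over 19 tumours (left) and over the 14 tumours outside the low-GC libraries (right). The block of Junb, Ier2 and Ier3 holds rho of 0.90 to 0.95 on the left and 0.76 to 0.89 on the right, and Zfp36 stands apart in both.

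A single tumour, DMSO replicate 2_1, held the highest values of several members. It was picked out after its values were seen. It held the highest level of Fos (64.2 CPM, next highest 16.6), Dusp1 (124.1, next 82.5), Egr1 (91.7, next 81.4) and Jun (312.9, next 266.9). For Fos this was 6.13 times the median of the other 18 tumours, for Dusp1 2.25 times, for Egr1 2.21 times and for Jun 1.42 times. It was thus the highest tumour for 4 of 10 members, against 1.82% of all tested genes. Yet the tumour ranked 2nd for Fosb, 6th for Zfp36, 8th for Nr4a1, 9th for Junb, 11th for Ier3 and 12th for Ier2. Of the marker sums, 8 neutrophil genes (57.2 CPM) and 8 smooth muscle and pericyte genes (72.0 CPM) were at their lowest of all 19 tumours there. Skeletal muscle, over 10 genes, was at 7.79 CPM (5.38 to 1462 CPM over DMSO tumours). The part of these cell types in its values was not tested. DMSO replicate 1_4 was high in a broader way, among the 3 highest tumours for 8 of 10 members and the highest for Ier3 and Zfp36.

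Other genes of the response, in 7 lists by role, were also examined. Of 92 listed genes 91 were tested, 0 passed in either direction and 5 had an unadjusted p under 0.05. Those 5 were Atf3, Ccn2, Tsc22d3, Per1 and Zbtb16, the last too low in level for the naming rule and named after its value was seen. Over all 15629 genes tested, 2.27% had an unadjusted p under 0.05. Of the 91, 51 lay above 0 and 40 below, with a median of 0.02, beside 8430 above and 7199 below over all genes, with a median of 0.01. In the list of AP-1 and CREB partners, 4 of 10 were above 0, and Atf3, a stress-induced partner of Jun proteins, was at 12.6 ± 4.72 CPM with DMSO (SD, n = 9) and 8.78 ± 2.57 CPM with 27HC (SD, n = 10), or -0.53 (SE 0.22) on the log2 scale. Fosl1 and Fosl2, the remaining Fos relatives, had -0.24 (SE 0.25) and 0.21 (SE 0.23). Among 15 other early transcription factors 10 were above 0, led by Cebpd with 0.83 (SE 0.40), then Cebpb with 0.67 (SE 0.52) and Nr4a2, a relative of Nr4a1, with 0.22 (SE 0.22). Among 17 feedback inhibitors and RNA decay factors 7 were above 0, with Dusp10 at -0.15 (SE 0.11), Spry4 at 0.18 (SE 0.15) and Nfkbia at -0.09 (SE 0.09).

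Of 15 serum response and adhesion targets 6 were above 0. Ccn2, a matricellular protein, averaged 63.5 ± 11.4 CPM with DMSO (SD, n = 9) and 91.1 ± 29.4 CPM with 27HC (SD, n = 10). Its log2 change was 0.52 (SE 0.17), with 9 of 10 27HC tumours above the DMSO median and an adjusted p of 1.00 in edgeR. Its relative Ccn1 had -0.28 (SE 0.21) and Hbegf, a ligand of the epidermal growth factor receptor, -0.18 (SE 0.12). Upstream kinases and ternary complex factors differed little, with 8 of 14 above 0 and a median of 0.01; Mapk8, which encodes a JNK kinase, had -0.25 (SE 0.22) and Elk4, a ternary complex factor, 0.09 (SE 0.15). In the glucocorticoid-responsive list 7 of 9 were above 0 with a median of 0.26: Tsc22d3 had 0.79 (SE 0.16), Per1 0.80 (SE 0.34) and Fkbp5 0.33 (SE 0.16). Dusp1 and Zfp36, which glucocorticoids are also known to induce, had -0.21 and -0.20 in the same fit. Neither passed, and Dusp1 was at -0.02 without DMSO replicate 2_1. Any part of glucocorticoid signalling in these values was not tested. The heat shock genes, another stress response, had 9 of 11 above 0 with a median of 0.11, Hspb1 being at 0.63 (SE 0.36), Hsph1 at 0.14 (SE 0.14) and Hspa8 at -0.13 (SE 0.11).

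DMSO replicate 2_1 was also the highest tumour for 9 of the 91 tested genes of these lists (9.89%, against 1.82% of all genes). They were Dusp6, Spred1, Btg2 and Ier5 of the feedback list, Ccn1, Ptgs2, Mcl1 and Plk2 of the serum response list, and Errfi1. Ccn1 stood farthest out, at 250.2 CPM beside 191.6 CPM in the next tumour, followed by Plk2 (59.2 and 51.4 CPM) and Mcl1 (470.6 and 417.7 CPM). The other 6 were close to ties: Spred1 had 81.5 and 80.5 CPM, Dusp6 280.7 and 276.1, Errfi1 169.5 and 166.5, Ier5 49.5 and 47.3, Btg2 23.1 and 21.95, and Ptgs2 219.2 and 207.3. It was the highest tumour for 0 of 11 heat shock genes, although their sum there, 2536 CPM, was the highest of the DMSO tumours.

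The 8 genes whose order over the 19 tumours was most like that of the members, by the median rho with the 10, were Cmip (0.81), Zxda (0.79), Mast4 (0.79), Tgif1 (0.78), Irf2bpl (0.78), Tmem248 (0.78), Nav1 (0.78) and Sox9 (0.78). Over the 14 tumours their medians were between 0.50 and 0.62, and their rho with library GC content over the 19 was between 0.44 and 0.71, in the range of the members (-0.24 for Fos to 0.72 for Ier3).

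Marker sums of other cell types were set beside each member, 100 correlations in all. Over 19 tumours 5 passed after Benjamini-Hochberg adjustment. The epithelial sum went with Junb, Ier2 and Ier3 (r = 0.72, 0.77 and 0.70, rho = 0.78, 0.80 and 0.76, permutation adjusted p = 0.0080, 0.0060 and 0.0080 for rho). The T and NK cell sum, over 8 markers, ran against Fosb and Nr4a1 (r = -0.62 and -0.61, rho = -0.68 and -0.67, permutation adjusted p = 0.042 for each rho). Over the 14 tumours none of these 5 passed (rho = 0.64, 0.60 and 0.55 for the epithelial sum, -0.53 and -0.56 for the T and NK sum). There 1 of 100 passed, the red cell sum with Ier2 (rho = 0.82, permutation adjusted p = 0.043). Epithelial markers summed to 44.96 to 99.8 CPM in the low-GC libraries and 73.8 to 137.8 CPM in the others. The part of these cell types in the order of the tumours was not tested.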

How the data were processed

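The members and gene lists were chosen with earlier results of these data known. Stranded poly(A) libraries were sequenced in paired ends, per the labels' protocols. The authors deposited expected counts per gene. kallisto 0.44.0, edgeR, limma and GRCm38 are named in the submitters' processing notes without a stated role, while the sources used here do not state the annotation or how transcripts were summed to genes. Each of the 19 columns was matched to a sample by title, and groups come from the titles. Symbols matched 26290 identifiers. Values were rounded and tested with edgeR 4.0.16 under R 4.3.3 (TMM, filterByExpr, quasi-likelihood, 17 residual degrees of freedom plus the prior), with limma 3.58.1 and DESeq2 1.42.0 as alternatives. The threshold was an adjusted p of 0.05. CPM uses TMM library sizes, and log2 CPM a prior count of 2. Exon lengths and transcript GC come from GENCODE M21 on GRCm38, and the GC correction is a loess fit per library (span 0.3). Correlations were tested two-sided by permutation with 100000 resamples. The named genes are all members, up to 3 genes per list with the smallest p and at least 1 log2 CPM, and the 8 genes most alike in order. One gene named by this rule is not reported here. The median estimates of the fit lay close to the fold changes planted in simulated counts. All planted changes were larger than any member's estimate over the 19 tumours, and smaller changes were not simulated. The simulated libraries held no GC difference. No duplicated library was found (lowest chi-square per degree of freedom within a group 39.0).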

Additional observations from a re-analysis of the deposited data

Results flagged for a closer look

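In 3 of 20 sets of values, each 1 gene in 1 group, the extreme tumour stood farther from its nearest neighbour than Dixon's 95% limit allows, where chance alone gives about 1 in 20. The limit and that rate hold for normally distributed values. They were applied to CPM and not to log2 CPM, on which high values stand out less, so a flag can come from the scale. Fos in DMSO replicate 2_1 had 64.2 CPM, with a gap of 0.81 of the group's range to the next tumour, at 16.6 CPM. Nr4a1 in DMSO replicate 1_4 had 132 CPM, a gap of 0.55 of the range to 93.2 CPM. Fosb in 27HC replicate 2_5 had 24.2 CPM, a gap of 0.49 of the range to 14.6 CPM. These are 3 different tumours.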

How the results depend on the processing

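Members called stayed at 0 under every alternative run, and no member passed an adjusted threshold in any. Genes called were 0 except in DESeq2 (2). Some signs turned. Ier3 (0.0045) was -0.035 in limma-voom, -0.0202 with a filter at 1 log2 CPM, -0.0204 with the first title number as covariate and -0.044 with the GC correction, which also turned Junb (-0.063) and Ier2 (-0.015) and was chosen after seeing the data. With first title number 1 alone Fos was 0.031, Junb -0.021, Ier2 -0.21, Ier3 -0.30 and Dusp1 0.34. The members' median (-0.03) was 0.0231 with quality weights, 0.0233 with number 2 alone and 0.030 without the low-GC libraries. Over the 19 fits without 1 tumour it ran from -0.14 to 0.042, Fos from -0.77 to 0.029, Jun from -0.15 to 0.011, Egr1 from -0.27 to 0.020 and Ier3 from -0.12 to 0.12. The median rho over pairs ran from 0.45 to 0.58 and positive pairs from 36 to 40 in those fits, and the median was 0.38 without the low-GC libraries. The median percentile of spread was 75.0 among genes of like level. Using the full title number as a replicate block, on 9 shared numbers, gave 0 members called and Ier3 at -0.093. Deviations of same-numbered tumours correlated from -0.43 to 0.78, so the numbers were not taken to pair the tumours, and 1 of 9 correlated best with its own number. The cause of each turn was not tested.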
